A study of Homo sapiens with 18 samples.

Results

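The 10 genes described here belong to the translation elongation machinery and to a related class of mRNAs, and they were followed through RNA and ribosome footprints after knockdown of fibrillarin. They are EEF1A1, EEF1B2, EEF1D, EEF1G, EEF2, EEF2K, EIF5A, TPT1, PABPC1 and NAP1L1, taken by symbol from the deposited table, which holds 17017 gene symbols, and all 10 were found. The cells were MDA-MB-231, an established human line of triple-negative breast carcinoma. They had been transduced as pools with lentiviral pLKO.1 vectors that carried either a scramble sequence or a short hairpin RNA against the fibrillarin mRNA, and all were selected with puromycin. Treatments are labelled SC, taken to mean the scramble control, and SH2 and SH3, taken to mean the hairpins, and the labels do not tie the hairpins to the names knockdown 1 and 2 in the protocol. Elongating ribosomes were held with cycloheximide before lysis. Part of each lysate was kept as cytoplasmic RNA (labelled IN), and the rest was digested with RNase I to give monosome footprints (labelled RPF). Each of the 6 groups had 3 replicates, which makes 18 libraries. The labels do not say that replicates were separate cultures, so p-values measure the spread between these samples, which may be technical.

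Elongation adds amino acids to the growing chain. The protein of EEF1A1 carries aminoacyl-tRNA to the ribosome, and those of EEF1B2, EEF1D and EEF1G form the complex that recharges it with GTP. The protein of EEF2 moves the ribosome along by a codon and is inactivated when the kinase EEF2K phosphorylates it, while that of EIF5A relieves ribosomes that slow at certain residues and carries the modified lysine hypusine. TPT1 encodes translationally controlled tumour protein, PABPC1 the cytoplasmic poly(A)-binding protein, and NAP1L1 a histone chaperone. Many of these mRNAs belong with the ribosomal protein mRNAs to the TOP class, which begins with a C followed by a run of pyrimidines, the terminal oligopyrimidine tract. Translation of TOP mRNAs depends on mTORC1, and LARP1 binds their 5′ end.

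The start sites are shown because the tract defines the class. Each line gives 10 bases before and 20 bases from an annotated RefSeq start (build GRCh38.p14), 5′ to 3′ on the gene's own strand. Capitals mark a tract, defined here as a C exactly at the start followed by at least 4 bases that are C or T. The windows lie at chr6:73521013-73521042 (minus strand) for EEF1A1, at chr2:206159885-206159914 (plus) for the second of 2 starts of EEF1B2, at chr19:3985444-3985473 (minus) for EEF2, at chr13:45341164-45341193 (minus) for TPT1 and at chr12:76084666-76084695 (minus) for NAP1L1. Those without a tract lie at chr11:62573872-62573901 (minus) for EEF1G, at chr16:22206268-22206297 (plus) for EEF2K and at chr17:7306989-7307018 (plus) for the first of 6 starts of EIF5A.
EEF1A1: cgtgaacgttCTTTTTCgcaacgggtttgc
EEF1B2: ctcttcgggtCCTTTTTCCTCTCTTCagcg
EEF2: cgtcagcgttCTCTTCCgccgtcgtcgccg
TPT1: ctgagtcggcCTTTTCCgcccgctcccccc
NAP1L1: gctcttgggtCTTTTTTagcgccatctgct
EEF1G: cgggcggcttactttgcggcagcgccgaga
EEF2K: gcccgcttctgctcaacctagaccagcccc
EIF5A: tgggaacccgaccacactagcgcgctagaa
By this rule 5 of these 8 genes (62.5%) have a tract at an annotated start, against 6.82% of the 13249 genes of the count table that have an entry. The first start of EEF1B2 and all 6 starts of EIF5A lack it. When the C may lie within 5 bases of the start, EEF2K joins, which makes 6 of 8, against 29.1% of the genes of the table. The rule finds a tract in 47 of 63 cytosolic ribosomal protein genes with an entry (74.6%) and in 9 of 10 other TOP mRNAs (90%). It finds none in the 10 paralogs of the members with an entry. A match describes these letters at an annotated start, and the starts used in these cells were not measured. Sequences for EEF1D and PABPC1 are not shown.

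Total counts ran from 23469830 to 27629488 in the RNA libraries and from 1662705 to 6098648 in the footprint libraries. FBL, the fibrillarin gene, averaged 388.3 ± 36.4 CPM (SD, n = 3; counts as a rate per library size, scaled by TMM factors within a library kind) in SC RNA, 5.67 ± 5.09 in SH2 and 3.49 ± 0.612 in SH3. The defining markers of the line were present in every RNA library, with VIM at 4081 to 7223 CPM, CD44 at 256.4 to 555.9 and EGFR at 173.8 to 928.3. Among markers of other breast cell types, ESR1 was at no more than 0.0412 CPM, PGR at no more than 0.0816, CDH1 at no more than 0.449, and EPCAM at 4.92 to 9.15, while ERBB2 was at 79.2 to 104.2. EGFR rose in both hairpins, by 2.21 on the log2 scale in SH2 and 1.64 in SH3 (edgeR adjusted p = 1.35e-08 and 1.05e-07). The footprint libraries of SC replicates 1 and 2 stood farthest from the others of their group, with a median absolute log2 difference per gene of 0.263 and 0.274, against 0.163 to 0.226 in the other 7 footprint libraries. Footprint results of EEF1A1, EEF1G and EIF5A changed most in size without SC replicate 1 and are given with and without it. Those of EEF1B2, EEF1D and NAP1L1 moved by less. In SH2, EEF1B2 went from -0.93 to -1.05, EEF1D from -0.71 to -0.85 and NAP1L1 from -0.23 to -0.11.

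In RNA, EEF1A1, EEF1B2, EEF1D and TPT1 fell in both hairpins, and EEF2, EIF5A and NAP1L1 in 1 of them. Of the 9 members that passed the filter on low counts, 5 fell and 1 rose in SH2, and 6 fell in SH3, at an adjusted p under 0.05 in edgeR's quasi-likelihood test (Benjamini-Hochberg over all genes tested). Both hairpins are compared with the same SC libraries. All 9 had a log2 change below 0 in SH3, and 8 of 9 in SH2. The background was broad: of 12710 genes tested in RNA, 30.4% fell and 31.1% rose in SH2, and 25.2% fell and 27.8% rose in SH3. The members' median log2 change was -0.442 in SH2 and -0.353 in SH3, beside 0.012 and 0.034 over all genes. EEF1G was the member not tested. In bulk RNA, fewer cells with an mRNA and less of it per cell cannot be told apart.

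In footprints the members split. Of 10 members tested, 5 fell and 2 rose in SH2 and 4 fell in SH3, where 23.2% of 10345 genes fell and 21.0% rose in SH2, and 19.0% fell and 16.9% rose in SH3. EEF1B2, EEF1D, EIF5A and PABPC1 fell in both hairpins, and EEF1A1 and EEF2K rose in SH2. The members' median was -0.389 in SH2 and -0.250 in SH3, beside -0.004 and -0.014 over all genes. Translational efficiency is the change in footprints less the change in RNA, on the log2 scale, tested in 1 fit of all 18 libraries. There calls were rare: TPT1 rose in both hairpins and EEF1A1 in SH2, where 1.44% of 12531 genes rose and 2.46% fell in SH2, and 0.375% rose and 0.311% fell in SH3. All 10 members were in that fit, and their median was 0.170 in SH2 and 0.398 in SH3, beside -0.019 and -0.044. Without EEF2K and EEF1G, the latter on 2 to 15 RNA counts per library, the median was 0.190 in SH2 and 0.269 in SH3. With each lysate as a block in the fit, 191 genes were called in SH2 in place of 489 and 23 in SH3 in place of 86, and no member gained or lost a call. Of the 489 genes called in SH2, 37.0% were higher. Under plain library totals 605 genes were called in SH2, of which 21.3% were higher.

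**Figure D1:**
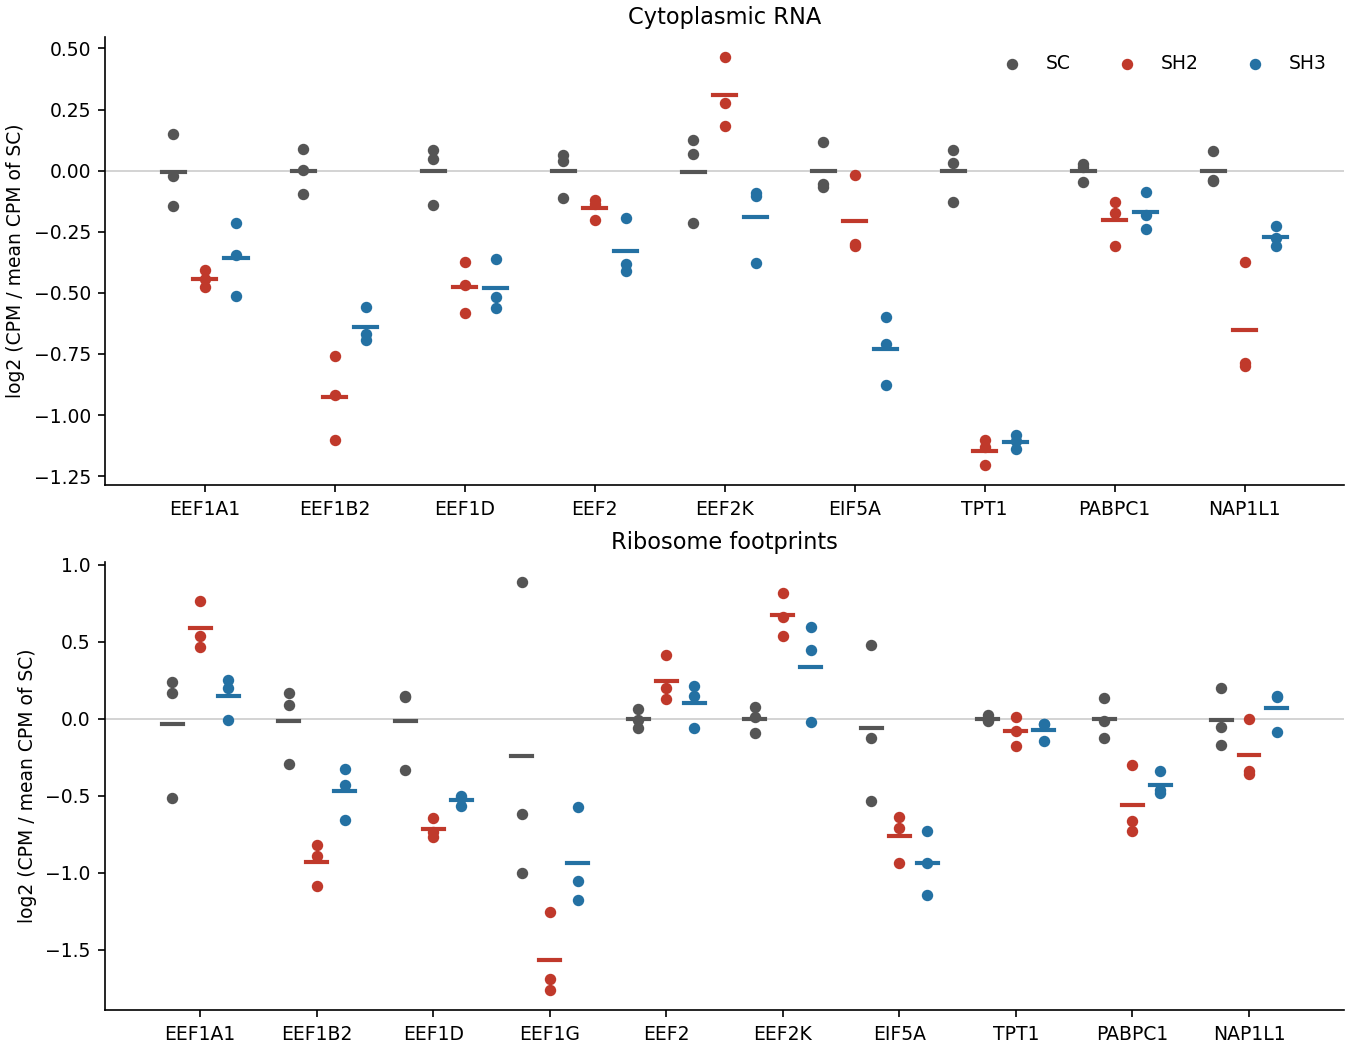
CPM of each member in each library, as log2 of the ratio to the mean CPM of SC (y axis), for cytoplasmic RNA (top, without EEF1G) and ribosome footprints (bottom), in SC (grey), SH2 (red) and SH3 (blue). Points are single libraries and bars the mean of the 3 points. In RNA, TPT1 lies more than 1 below SC in all 6 hairpin libraries, while its footprints lie near 0.

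EEF1A1 was the most counted gene of these libraries, first in all 9 footprint libraries and in 7 of 9 RNA libraries, with 1.571% to 2.342% of the counts in RNA and 1.842% to 4.253% in footprints. Its RNA and footprints moved in opposite directions in SH2. RNA was at 21621, 19840 and 24365 CPM in SC replicates 1 to 3, at 16572, 15755 and 16125 in SH2, and at 15363, 18898 and 17275 in SH3. All 6 hairpin libraries lay below all 3 of SC. RNA fell by 0.44 on the log2 scale in SH2 (SE 0.11, edgeR adjusted p = 0.00297) and by 0.35 in SH3 (SE 0.11, adjusted p = 0.0141). Without SC replicate 3 the change in SH3 was -0.27 and missed the threshold (adjusted p = 0.0694).

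Footprints of EEF1A1 were at 18240, 30636 and 29188 CPM in SC, at 35936, 44259 and 37722 in SH2, and at 25871, 30936 and 29877 in SH3. The SH2 libraries all lay above SC, and SH3 overlapped it, with SC replicate 1 low among its group. Footprints rose by 0.60 in SH2 (SE 0.17, adjusted p = 0.00915), and the change in SH3 was 0.15 (SE 0.17, adjusted p = 0.511). Translational efficiency rose by 1.03 in SH2 (SE 0.21, adjusted p = 0.00787), a 2.04-fold difference, and its change in SH3 was 0.52 (SE 0.21, adjusted p = 0.275). Without SC replicate 1 the footprint changes were 0.40 (adjusted p = 0.0156) and -0.04 (adjusted p = 0.854), and the changes in translational efficiency 0.86 (adjusted p = 0.0104) and 0.34 (adjusted p = 0.329). The difference in translational efficiency between SH2 and SH3 was 0.51 and did not pass (SE 0.21, adjusted p = 0.332).

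EEF1B2, an exchange factor that recharges eEF1A with GTP, fell in both kinds of library and both hairpins. Its RNA was at 810.7, 757.1 and 859.7 CPM in SC, 377.3, 478.3 and 427.9 in SH2, and 500.4, 550.4 and 509.0 in SH3. Its footprints were at 1712, 2347 and 2224 CPM in SC, 1188, 1130 and 986.8 in SH2, and 1669, 1554 and 1329 in SH3. In neither measure did a hairpin library reach the lowest of SC. RNA fell by 0.92 in SH2 (SE 0.10, adjusted p = 4.45e-06), to 0.529 of SC, and by 0.64 in SH3 (SE 0.10, adjusted p = 0.00016). Footprints fell by 0.93 (SE 0.14, adjusted p = 0.000113) and 0.46 (adjusted p = 0.0193). The footprint call in SH3 was lost without SC replicate 2 or 3 or SH3 replicate 2 or 3, with a highest adjusted p of 0.104. The changes in translational efficiency were -0.01 (SE 0.17) and 0.19 (SE 0.17), neither called.

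EEF1D, the other exchange factor, also fell in both kinds of library and both hairpins. RNA was at 696.1, 611.7 and 713.8 CPM in SC, 487.8, 450.0 and 519.8 in SH2, and 471.5, 525.1 and 456.6 in SH3. Footprints were at 1233, 1722 and 1712 CPM in SC, 933.9, 996.5 and 912.6 in SH2, and 1101, 1050 and 1090 in SH3. Again no hairpin library overlapped SC. RNA fell by 0.47 and 0.48 (SE 0.10 each, adjusted p = 0.000917 and 0.00114), and footprints by 0.71 (SE 0.14, adjusted p = 0.000632) and 0.53 (SE 0.14, adjusted p = 0.00738). The changes in translational efficiency were -0.25 and -0.03, neither called (adjusted p = 0.454 and 0.96).

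EEF1G, the subunit that anchors the complex, could be followed in footprints only. Its RNA counts were 15, 12 and 9 in SC, 2, 7 and 4 in SH2, and 3, 4 and 5 in SH3, in libraries of at least 23469830 counts, while its footprint counts were 66 to 942. How reads that match several places were counted is not given in the sources used here, and its part in these counts was not tested. In the authors' deposited table the RNA change of EEF1G was -1.605 in SH2 (adjusted p = 0.0432) and -1.63 in SH3 (adjusted p = 0.04587). Footprints were at 152.9, 41.3 and 53.8 CPM in SC, 24.4, 34.7 and 25.6 in SH2, and 39.8, 55.5 and 36.5 in SH3. SC replicate 1 stood far above the other SC libraries, SH2 lay wholly below SC and SH3 overlapped it. Footprints fell by 1.56 in SH2 (SE 0.36, adjusted p = 0.00263), and the change in SH3 was -0.93 (SE 0.36, adjusted p = 0.0526). Without SC replicate 1 the changes were -0.75 (adjusted p = 0.00901) and -0.11 (adjusted p = 0.724). The change in SH3 was called without SC replicate 2 (-1.22, adjusted p = 0.00428) or SC replicate 3 (-1.17, adjusted p = 0.0272).

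EEF2, the translocase, moved little. Its RNA was at 1842, 1631 and 1813 CPM in SC, 1605, 1531 and 1621 in SH2, and 1354, 1539 and 1327 in SH3, with no hairpin library reaching the lowest of SC. RNA fell by 0.32 in SH3 (SE 0.09, adjusted p = 0.0104), and the change in SH2 was -0.15 (SE 0.09, adjusted p = 0.178). Footprints were at 1539, 1676 and 1599 CPM in SC, 1753, 2136 and 1843 in SH2, and 1538, 1858 and 1781 in SH3. The SH2 libraries lay above SC, but neither footprint change was called, at 0.25 (SE 0.13, adjusted p = 0.115) and 0.11 (SE 0.13, adjusted p = 0.544). The changes in translational efficiency, 0.39 (SE 0.15) and 0.44 (SE 0.15), also missed the threshold (adjusted p = 0.156 and 0.192). DESeq2 called the second of them (adjusted p = 0.0473).

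EEF2K, the kinase that inactivates eEF2, differed between the hairpins in RNA. RNA was at 28.6, 22.6 and 27.5 CPM in SC, 31.8, 29.8 and 36.2 in SH2, and 24.4, 20.2 and 24.6 in SH3. All SH2 libraries lay above SC, and SH3 overlapped it. RNA rose by 0.31 in SH2 (SE 0.12, adjusted p = 0.0413), and the change in SH3 was -0.19 (SE 0.13, adjusted p = 0.227). The call in SH2 was lost with TMM factors from other genes than ribosomal proteins and members (adjusted p = 0.0585) and with only the groups compared (adjusted p = 0.0698). It was also lost without SC replicate 2 or 3 or SH2 replicate 1 or 3, where the change ran from 0.21 to 0.35, the lowest without SH2 replicate 3 (adjusted p = 0.204). Footprints rested on 31 to 125 counts per library and were at 17.2, 18.5 and 19.4 CPM in SC, 26.7, 29.1 and 32.4 in SH2, and 18.1, 25.0 and 27.7 in SH3. They rose by 0.68 in SH2 (SE 0.19, adjusted p = 0.00747), and the change in SH3 was 0.39 (SE 0.19, adjusted p = 0.131). In translational efficiency the changes were 0.35 (SE 0.22, edgeR adjusted p = 0.413) and 0.59 (SE 0.22, adjusted p = 0.249), neither called.

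EIF5A fell in footprints in both hairpins and in RNA in SH3. RNA was at 507.3, 511.4 and 576.2 CPM in SC, 429.7, 432.1 and 525.3 in SH2, and 289.2, 351.5 and 325.3 in SH3. SH2 overlapped SC through its replicate 3, and SH3 lay below every other library. RNA fell by 0.72 in SH3 (SE 0.11, adjusted p = 9.89e-05). The change in SH2 was -0.20 (SE 0.11, adjusted p = 0.123), and without SH2 replicate 3 it was -0.33 and called (adjusted p = 0.0205). Footprints were at 979.3, 642.9 and 485.4 CPM in SC, 366.2, 451.1 and 430.3 in SH2, and 367.1, 423.5 and 317.3 in SH3. They fell by 0.76 in SH2 (SE 0.20, adjusted p = 0.00648) and 0.93 in SH3 (SE 0.20, adjusted p = 0.00233), and without SC replicate 1 by 0.43 (adjusted p = 0.0344) and 0.59 (adjusted p = 0.00647). The changes in translational efficiency were -0.57 (adjusted p = 0.236) and -0.19 (adjusted p = 0.816), and without SC replicate 1 -0.19 (adjusted p = 0.672) and 0.18 (adjusted p = 0.715). Reads of its near copy EIF5AL1 numbered 3 to 15 per RNA library and 0 to 6 per footprint library.

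TPT1 showed the clearest separation of RNA from footprints. RNA was at 1395, 1250 and 1449 CPM in SC, 623.4, 634.9 and 592.5 in SH2, and 645.3, 634.6 and 619.2 in SH3. Every hairpin library lay near the others and far below SC. RNA fell by 1.15 in SH2 (SE 0.09, adjusted p = 2.3e-07), to 0.452 of SC, and by 1.11 in SH3 (SE 0.09, adjusted p = 6.86e-07), to 0.464. Among all genes tested these changes stood at the percentiles 7.6 and 6.4. Footprints were at 696.6, 693.0 and 714.9 CPM in SC, 707.6, 620.5 and 663.7 in SH2, and 685.5, 633.4 and 685.4 in SH3. SH2 overlapped SC and SH3 lay just below it, with changes of -0.08 (SE 0.12, adjusted p = 0.605) and -0.07 (SE 0.12, adjusted p = 0.671). Translational efficiency rose by 1.05 in both hairpins (SE 0.13 each, adjusted p = 0.00027 and 0.000302), at the percentiles 97.0 and 97.1 of all genes.

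PABPC1 fell in footprints in both hairpins. RNA was at 3871, 3707 and 3900 CPM in SC, 3087, 3505 and 3397 in SH2, and 3373, 3239 and 3600 in SH3. All hairpin libraries were below SC, yet the changes of -0.20 (SE 0.09, adjusted p = 0.0728) and -0.17 (SE 0.09, adjusted p = 0.139) missed the threshold. DESeq2 called both (adjusted p = 0.0206 and 0.0419). Footprints were at 262.7, 243.1 and 291.0 CPM in SC, 160.3, 167.8 and 215.9 in SH2, and 210.2, 189.7 and 192.8 in SH3, again with no overlap. They fell by 0.55 in SH2 (SE 0.14, adjusted p = 0.00502) and by 0.43 in SH3 (SE 0.14, adjusted p = 0.027). The call in SH3 was lost without SC replicate 3 (adjusted p = 0.124) and without SH3 replicate 2 or 3 (0.106 and 0.091). Under plain library totals it was lost as well, at -0.36 (adjusted p = 0.0622). The changes in translational efficiency were -0.36 and -0.25 (adjusted p = 0.23 and 0.562).

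NAP1L1 fell in RNA in SH2. RNA was at 938.9, 934.7 and 1018 CPM in SC, 553.7, 744.9 and 558.4 in SH2, and 778.6, 824.1 and 795.9 in SH3, and no hairpin library reached SC. RNA fell by 0.64 in SH2 (SE 0.11, adjusted p = 0.000256), and the change in SH3 was -0.27 (SE 0.11, adjusted p = 0.0594). The latter was called by DESeq2 (-0.30, adjusted p = 0.0235), without SC replicate 1 (-0.30, adjusted p = 0.0492) and under other settings. Footprints were at 2066, 1736 and 1601 CPM in SC, 1797, 1406 and 1421 in SH2, and 1997, 1983 and 1695 in SH3, and overlapped in both hairpins. Their changes were -0.23 (adjusted p = 0.207) and 0.07 (adjusted p = 0.726), and those in translational efficiency 0.40 (adjusted p = 0.25) and 0.35 (adjusted p = 0.447).

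Counted by overlap alone, 7 of the 9 members tested in RNA had every SH2 library below SC, and 8 of 9 had every SH3 library below. Of all genes tested 31.9% and 29.6% did so. Across footprints, 5 of 10 members lay wholly below SC in SH2 and 5 of 10 in SH3, where 26.3% and 23.9% of all genes did. A further 3 members, EEF1A1, EEF2 and EEF2K, lay wholly above SC in SH2, where 25.0% of all genes did.

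**Figure D2:**
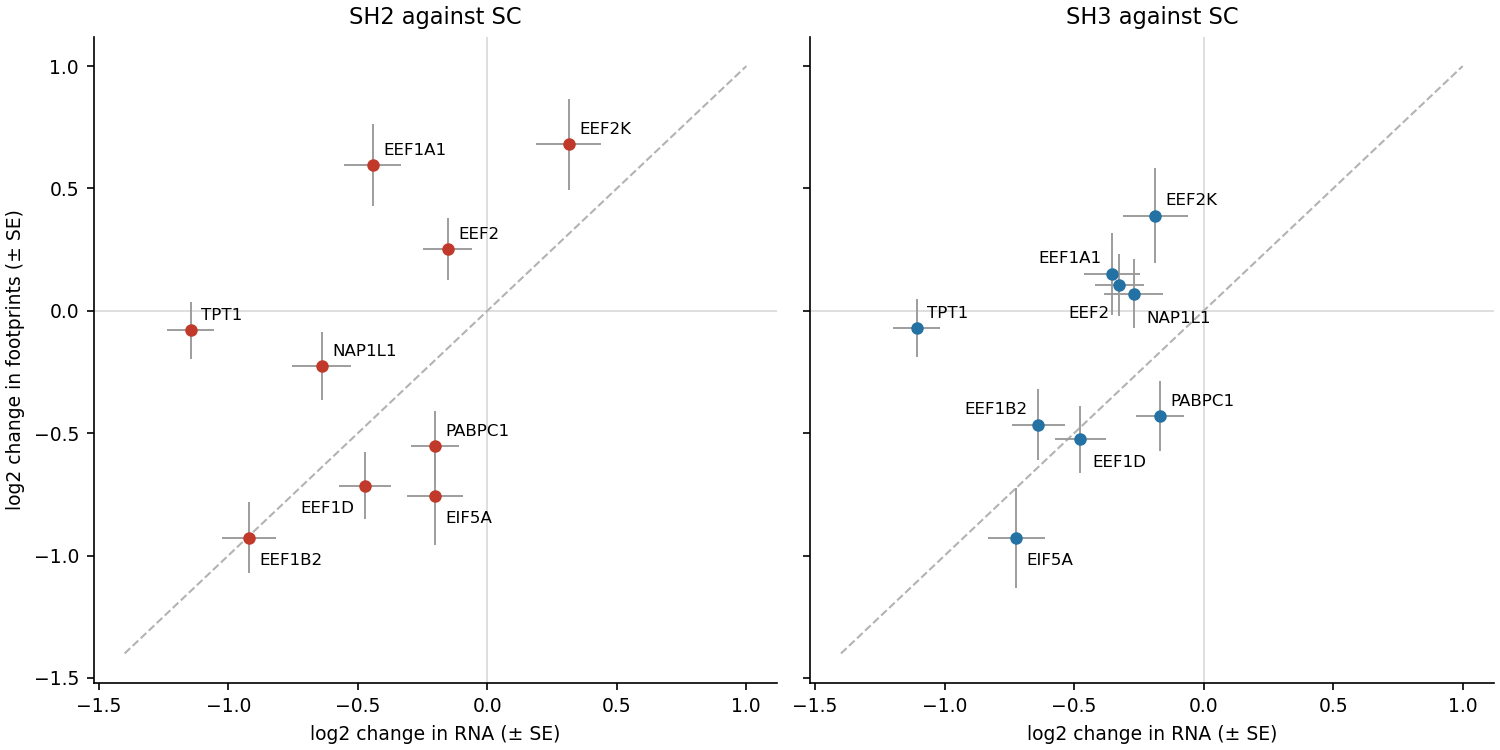
Log2 change in RNA (x axis) and in footprints (y axis) against SC for 9 members, for SH2 (left) and SH3 (right), with bars of 1 SE from edgeR; EEF1G is left out and the dashed line marks equal change. TPT1 (1.05) and EEF1A1 (1.03) lie farthest above the line in SH2, where EEF1B2, EEF1D, EIF5A and PABPC1 lie on or below it.

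The footprint to RNA ratio of each lysate, as log2 of footprint CPM over RNA CPM, shows where the members stood before and after knockdown. It depends on the regions counted in each kind of library, which are not given in the sources used here. Percentiles give a gene's place among the ratios of 8807 genes with at least 10 counts in every library, as a description of these counts only. TPT1 was at -1.002, -0.851 and -1.019 in SC, at 0.183, -0.033 and 0.164 in SH2 and at 0.087, -0.003 and 0.147 in SH3. It moved from the percentiles 19.3 to 24.9 in SC to 53.8 to 62.7 in SH2 and 56.9 to 63.7 in SH3. EEF1A1 was at -0.245, 0.627 and 0.261 in SC, at 1.117, 1.490 and 1.226 in SH2 and at 0.752, 0.711 and 0.790 in SH3, and its hairpin lysates lay at the percentiles 86.4 to 96.9.

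EEF2 had means of -0.13 ± 0.16 (SD, n = 3) in SC, 0.26 ± 0.19 in SH2 and 0.29 ± 0.12 in SH3, with all hairpin lysates above SC. PABPC1 was at -3.85 ± 0.10 in SC, -4.21 ± 0.21 in SH2 and -4.11 ± 0.11 in SH3. It stood at the percentiles 0.1 to 0.2 in all 9 lysates, and all 6 hairpin lysates lay below SC. The share of all genes with no overlap in this ratio was not computed. Neither EEF2 nor PABPC1 was called in translational efficiency by edgeR. NAP1L1 (0.89 ± 0.24 in SC, 1.32 ± 0.39 in SH2, 1.24 ± 0.14 in SH3), EEF1B2 (1.36 ± 0.28, 1.37 ± 0.25, 1.54 ± 0.18) and EEF1D (1.19 ± 0.34, 0.97 ± 0.17, 1.16 ± 0.14) overlapped between treatments. EIF5A was at 0.34 ± 0.60 in SC, where replicate 1 was at 0.949 and replicate 3 at -0.248.

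Tested within a treatment, scaled footprints stood above scaled RNA for 6 members and below for 2 in SC, 7 and 1 in SH2, and 8 and 1 in SH3. The zero of this fit is set by TMM factors over all 18 libraries and is not a measured amount. The ratios above used factors within each library kind, and EEF1A1 in SC averaged 0.21 there and is at 0.47 here. Over all genes 30.7% were higher and 34.0% lower in SC, 30.3% and 34.2% in SH2, and 27.9% and 31.9% in SH3. EEF1G is among those above in each treatment, on 2 to 15 RNA counts per library. It failed the filter on low counts in the RNA fit and entered this fit through its footprint counts. Its calls here therefore say nothing about the members. Those lower in SC were TPT1 and PABPC1. TPT1 was at -0.73 in SC (SE 0.09, adjusted p = 5.19e-07), 0.32 in SH2 (SE 0.09, adjusted p = 0.00456) and 0.32 in SH3 (SE 0.09, adjusted p = 0.00591). Under plain library totals, TPT1 was at 0.05 and 0.09 in the hairpins and not called. EEF1A1 in SC (0.27, adjusted p = 0.0967), EEF2 in SH2 (0.21, adjusted p = 0.0686) and EIF5A in SH3 (0.21, adjusted p = 0.327) also lost their calls under it, and EEF2K in SC gained one (-0.48, adjusted p = 0.00812). That scaling moved the median of all genes in SC, SH2 and SH3, which was -0.068, -0.063 and -0.080, to -0.262, -0.337 and -0.304. It also moved the share of calls that were higher, which was 47.5%, 47.0% and 46.6%, to 36.7%, 32.9% and 32.9%. Without SH3 replicate 3 the value of TPT1 in SH3 also missed the threshold (0.28, adjusted p = 0.0699). EEF1A1 in SC was not called without SC replicate 2 (0.28, adjusted p = 0.16) or with only the groups compared (0.47, adjusted p = 0.0598), nor EIF5A in SC without SC replicate 1 (0.26, adjusted p = 0.163), nor EIF5A in SH3 without any 1 SH3 replicate (adjusted p = 0.0558 to 0.179).

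**Figure D3:**
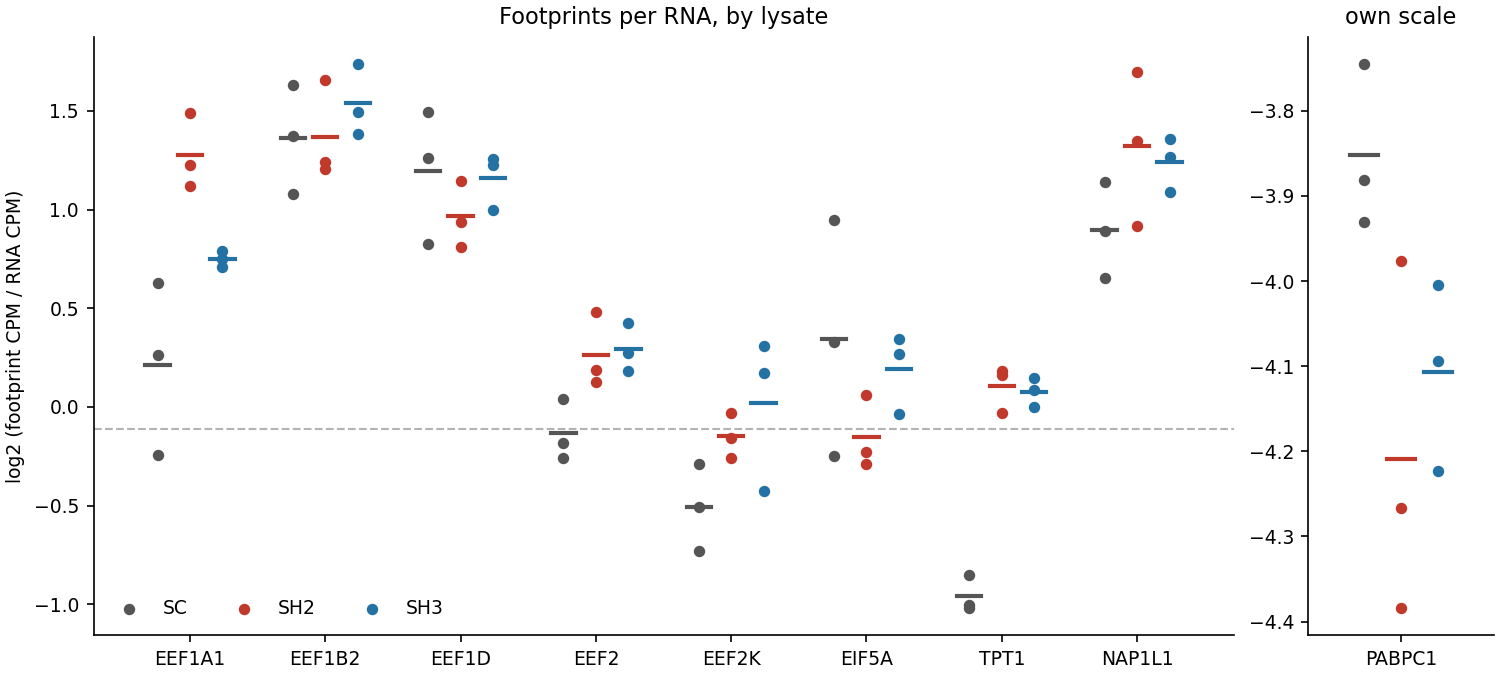
Log2 of footprint CPM over RNA CPM in each lysate (y axis) for 8 members, and for PABPC1 on a scale of its own at right, in SC (grey), SH2 (red) and SH3 (blue). Points are lysates, bars the mean of 3, and the dashed line the median of all genes. TPT1 lies between -1.019 and -0.851 in SC and between -0.033 and 0.183 in the hairpins.

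The hairpins were compared directly with each other. In RNA 2 members were higher in SH2 (18.9% of all genes were) and 2 lower (20.4%). EIF5A was higher in SH2 by 0.52 (SE 0.11, adjusted p = 0.00199) and EEF2K by 0.50 (SE 0.13, adjusted p = 0.00618). EEF1B2 was lower by 0.28 (SE 0.10, adjusted p = 0.0417) and NAP1L1 by 0.37 (SE 0.11, adjusted p = 0.0195). The calls for EEF1B2 and NAP1L1 were lost without SH2 replicate 1 or 3 and without SH3 replicate 2 or 3, and that for EEF1B2 also without SH3 replicate 1, with adjusted p up to 0.172 and 0.088. With TMM factors from other genes than ribosomal proteins and members, the call for EEF1B2 was lost as well (edgeR adjusted p = 0.0533). In footprints EEF1B2 was the 1 member lower in SH2 (-0.46, SE 0.14, adjusted p = 0.029), where 11.6% of all genes were lower and 12.1% higher. It lost that call without SH2 replicate 2 or 3 or SH3 replicate 1 or 2 (adjusted p up to 0.13). In translational efficiency edgeR called 0 members and DESeq2 also 0, and 1 (EEF1A1) had an unadjusted p under 0.05. Over all genes 0% were higher and 0.0160% lower by edgeR, which called 2 genes, while 1471 had an unadjusted p under 0.05.

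Other genes of the same class and pathway, from lists drawn up for this comparison, give the setting. In each hairpin their counts stand beside the shares of all genes given above, in RNA 30.4% lower and 31.1% higher in SH2 and 25.2% and 27.8% in SH3, in footprints 23.2% and 21.0%, and 19.0% and 16.9%, and in translational efficiency 1.44% and 0.375% higher. Of 79 cytosolic ribosomal protein mRNAs, 75 fell in RNA in SH2 and 73 in SH3, with medians of -0.635 and -0.567. RPL31 (-0.99 in SH2, -0.87 in SH3), RPL34 (-0.86, -0.91) and RPL37 (-0.97, -0.86), all of the large subunit, had the largest falls by the smaller of the changes in both hairpins. Their footprints had medians of -0.038 and -0.062, with 9 of 78 higher and 19 lower in SH2, and 5 and 17 in SH3. Translational efficiency rose for 35 of 79 in SH2 and 19 in SH3, with medians of 0.578 and 0.520, led by RPL23A (1.14, 1.06), RPS4X (1.06, 0.95) and RPS18 (0.95, 0.87).

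Of 16 other TOP mRNAs, 13 fell and 1 rose in RNA in SH2, and 12 fell and 1 rose in SH3, with medians of -0.392 and -0.398. EIF3E (-0.95, -0.54), a subunit of initiation factor eIF3, HNRNPA1 (-0.84, -0.49), a splicing factor, and RACK1 (-0.53, -0.47), a scaffold on the small subunit, fell in both, and EIF3K (0.71, 0.37) rose. In footprints 4 of 16 rose and 1 fell in SH2, and 4 rose and 2 fell in SH3. EIF4B (0.53, 0.55), EIF3H (0.41, 0.37) and EIF3L (0.453, 0.359) rose there in both hairpins. The list's footprint medians were 0.024 and 0.022, while those for translational efficiency were 0.450 and 0.452. EIF4B (0.89, 1.28), a cofactor of the helicase eIF4A, and EIF3L (1.197, 0.759) rose in translational efficiency in both hairpins. In footprints EEF1B2 and EEF1D, at -0.46 or lower in both hairpins, were below the medians of both lists. So were EIF5A (-0.76, -0.93), PABPC1 (-0.55, -0.43), EEF1G (-1.56, -0.93) and, by less, TPT1 (-0.08, -0.07). Of these changes, those of TPT1 and that of EEF1G in SH3 were not called. Without SC replicate 1, EIF5A was at -0.43 and -0.59 and EEF1G at -0.75 and -0.11, and the list medians were not recomputed. Among the ribosomal proteins 8 fell in footprints in both hairpins, led by RPL36A (-1.27, -1.65), RPS28 (-0.73, -0.71) and RPL39 (-0.92, -0.62). Of these proteins, 1 rose in both, RPL6 (0.42, 0.39).

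**Figure D4:**
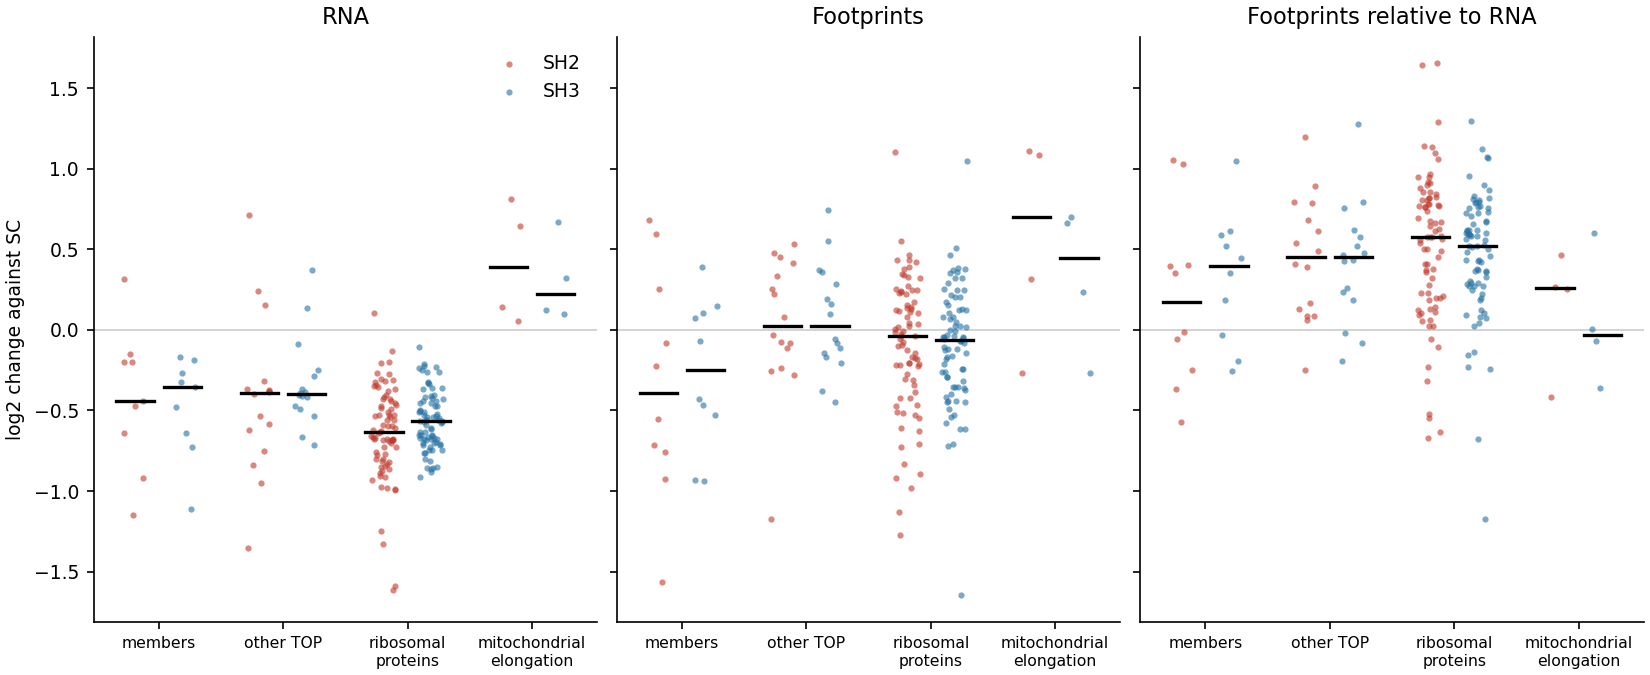
Log2 change against SC (y axis) of the members, of other TOP mRNAs, of cytosolic ribosomal proteins and of mitochondrial elongation factors, in RNA, footprints and footprints relative to RNA, for SH2 (red) and SH3 (blue). Points are genes tested and bars medians. The members' RNA medians of -0.442 and -0.353 lie beside those of the other TOP mRNAs, -0.392 and -0.398.

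Paralogs of the members did not share 1 pattern. Of 10 tested in RNA, 3 fell and 1 rose in each hairpin, a share near that of all genes that fell. EIF5A2, the second eIF5A gene, fell in RNA (-0.74 in SH2, -1.43 in SH3) and footprints (-1.10, -1.64), as EIF5A did in footprints. EEF1A2, the tissue-restricted second eEF1A gene, had RNA changes of -0.01 and 0.04 and was not called. PABPN1, the nuclear poly(A)-binding protein, rose in RNA (0.84, 0.40), and NAP1L4 fell in footprints (-0.44, -0.35). Of the 4 mitochondrial elongation factors, 2 rose in RNA in both hairpins, GFM1 (0.81, 0.67), the mitochondrial translocase, and GFM2 (0.64, 0.32), a recycling factor. TUFM (0.14, 0.10) and TSFM (0.06, 0.12), which act as the mitochondrial counterparts of eEF1A and its exchange factor, were not called.

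The enzymes that modify elongation factors moved in part. In RNA, 7 of 14 rose and 3 fell in SH2, and 6 rose in SH3. EEF2KMT (0.707, 1.299), a lysine methyltransferase of eEF2, EEF1AKMT4 (0.81, 1.10), one of eEF1A, and DPH2 (0.44, 0.42), of the pathway that makes diphthamide on eEF2, rose in both. DPH2 (0.91, 0.89) and DPH1 (0.94, 0.72) also rose in footprints. DHPS and DOHH, which make hypusine on eIF5A, had RNA changes of -0.30 and 0.59 in SH2, both called (adjusted p = 0.0303 and 0.00127), and of -0.12 and 0.09 in SH3, not called; they were chosen after their values were seen.

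Of 10 regulators of EEF2K, 8 fell in RNA in SH2 and 5 in SH3, where 1 rose, beside 30.4% and 25.2% of all genes that fell. In footprints 5 fell in each hairpin and 1 rose in SH3, beside 23.2% and 19.0% that fell. RPS6KB1 (-0.76, -0.51), which encodes the kinase S6K1 that phosphorylates and restrains eEF2K, and PRKAA1 (-0.54, -0.38), a catalytic subunit of AMPK, fell in RNA in both. RPS6KA1 (-0.76, -0.70), which encodes a kinase of the RSK family, and RPS6KB1 (-0.73, -0.66) fell in footprints in both. The 1 that rose in RNA was BTRC (0.85 in SH3, adjusted p = 7.93e-06), of the ubiquitin ligase that degrades eEF2K.

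Among 12 regulators of TOP mRNAs, 3 rose and 5 fell in RNA in SH2, and 5 rose and 2 fell in SH3. MTOR rose in RNA (0.49, 0.47) and footprints (0.54, 0.59), as did CNBP (0.50, 0.41 in RNA), a protein that binds TOP sequences, while EIF4EBP1 fell in RNA (-1.18, -0.67). LARP1, which binds the TOP tract, had RNA changes of -0.12 in SH2 (adjusted p = 0.312) and -0.51 in SH3 (adjusted p = 0.000891), and it was named after its values were seen. Of 8 partners of PABPC1 in RNA, 5 rose and 3 fell in SH2, and 3 rose and 1 fell in SH3. PAIP2B (1.06, 1.61), an inhibitor of PABPC1, and PAIP1 (0.49, 0.39), an activator, rose in RNA in both, and GSPT1 (-0.45, -0.36), the release factor eRF3a, fell in footprints. PAIP2, of the same list, differed between the hairpins and was named after its values were seen. Its RNA fell by 1.88 in SH2 and rose by 0.47 in SH3 (edgeR adjusted p = 1.65e-07 and 0.0093). Its footprints fell by 2.01 and rose by 0.55 (adjusted p = 9.84e-07 and 0.0176). PABPC4, a second cytoplasmic poly(A)-binding protein, had RNA changes of 0.15 and 0.14, not called, and its footprints rose in SH3 (0.75, adjusted p = 0.000705); it too was named after its values were seen.

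The members did not vary as 1 group across the libraries. With log2 CPM centred within each library kind, Pearson's r over the 18 libraries was 0.90 between EEF1B2 and EEF1D and 0.77 between EEF1A1 and EEF2, but -0.00 between EEF1A1 and EEF1B2 and 0.04 between EEF1A1 and EEF1D. TPT1 had r = 0.70 with EEF1B2. These values share libraries and the contrast between treatments, and they are descriptions. Of 10326 other genes, those most like the mean profile of the members without EEF2K were RPS15A (0.971), IL18 (0.944), SPIN4 (0.943), UBP1 (0.942) and HMGB1 (0.941). Without EEF1G as well, they were RPL31 (0.942), RPS15A (0.939), SNRPE (0.939), SNRPF (0.936) and PGRMC1 (0.936). The gene most like EEF1A1 was RPS10 (0.935), and the one most like TPT1 was RPL31 (0.938), both ribosomal proteins. For the other members it was FAM135A for EEF1B2 (0.959), ARHGAP22 for EEF1D (0.948), H2BC5 for EEF1G (0.892), SHC1 for EEF2 (0.844), FBXW9 for EEF2K (0.894), PCNP for EIF5A (0.946), MOCOS for PABPC1 (0.919) and PHF10 for NAP1L1 (0.918).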

How the data were processed

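RNA and footprints were measured in 18 libraries of MDA-MB-231 cells, 3 in each of 6 groups. The deposited table held raw whole-number counts per gene and library. Its signal columns were DESeq2-normalized values, per the file headers, and its log2 fold changes and p-values were the authors' own DESeq2 comparisons. Bowtie 1.2.2 and DESeq2 are named, per the submitters' processing notes. Build, annotation, counting rule and treatment of reads that match several places are not given in the sources used here. Counts were tested in edgeR 4.0.16 (R 4.3.3) with filterByExpr, TMM factors and the two-sided quasi-likelihood test, Benjamini-Hochberg over all genes tested, at 0.05. RNA was fitted over 9 libraries, footprints over 9, and translational efficiency over all 18 as an interaction. SE is the absolute log2 change divided by the square root of F. The edgeR fit of each measure was tested on simulated counts, for SH2 against SC only. The common biological coefficient of variation was 11.6% in RNA and 15.1% in footprints, and replicates differed beyond counting noise (chi-square per degree of freedom 3.38 to 56.3). Counts carry no molecular identifiers, so counting error is a lower limit.

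The members and gene lists were chosen with earlier results of these data known. All 10 members were named. From other lists, at most 3 genes called in the same direction in both hairpins were named per measure, ordered by the smaller change, and every gene of lists of up to 4; 1 gene that this rule names is not reported here. Alternatives were DESeq2 1.42.0, plain totals, TMM without ribosomal proteins and members, no filter, only the groups compared, thinned footprints, blocks by replicate number or lysate, and leaving out each replicate. The RNA and footprint library of a lysate are paired by the protocol, and their deviations from group means had r from -0.49 to 0.50 over 9 lysates. Levels are not compared between genes, since no transcript lengths were used. The labels name no batch. Start sequences came from RefSeq (GRCh38.p14), and 8 of the 10 members are shown.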

Additional observations from a re-analysis of the deposited data

Results flagged for a closer look

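The 5 results below differ between the hairpins by a direct test of SH2 against SH3, although both were directed against fibrillarin. In RNA, EIF5A was 0.52 higher in SH2 than in SH3 on the log2 scale (0.5220, edgeR adjusted p = 0.00199), and EEF2K 0.50 higher (0.5011, adjusted p = 0.00618). NAP1L1 was 0.37 lower (-0.3692, adjusted p = 0.0195) and EEF1B2 0.28 lower (-0.2813, adjusted p = 0.0417). In footprints EEF1B2 was 0.46 lower (-0.4614, adjusted p = 0.029). The calls of EIF5A and EEF2K were kept under every alternative. Those of NAP1L1 and EEF1B2 in RNA and of EEF1B2 in footprints were lost under several. Their highest edgeR adjusted p was 0.088, 0.172 and 0.13. FBL RNA was at 5.67 ± 5.09 CPM (SD, n = 3) in SH2 and 3.49 ± 0.612 in SH3, and its part in these differences was not tested. Groups of 3 libraries were not screened for outlying values.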

How the results depend on the processing

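Of 117 member results, 56 were called, and 43 of these kept their call and direction under every alternative run. The other 13 lost it under at least 1, 10 results gained a call, and none reversed, over 1464 values (an uncalled change has no direction here). The 56 include calls of footprints against RNA within a treatment, 6 higher and 2 lower in SC, 7 and 1 in SH2, and 8 and 1 in SH3. Among these, EEF1G kept its call in each treatment on 2 to 15 RNA counts per library, which says nothing about the members. The number of members called in footprints between SH2 and SH3 was 1, with 3 under no filter, 3 with only the groups compared, 2 with the replicate number as a block, and 0 to 1 when a replicate was left out. In RNA between SH2 and SH3 it was 4, and 2 to 4 when a replicate was left out. In footprints of SH3 it was 4, and 2 to 4 when a replicate was left out, with 2 without SH3 replicate 2 or 3. There EEF1G gained a call under no filter (-0.93, edgeR adjusted p = 4.48e-05) and with thinned footprints (-0.925, adjusted p = 0.0362). In translational efficiency of SH3 the number of members called was 1, and 2 by DESeq2. The replicate number as a block gave calls to EEF1A1 footprints between SH2 and SH3 (0.44, adjusted p = 0.0147) and NAP1L1 RNA in SH3 (-0.27, adjusted p = 0.0344), and it and the block by lysate changed no other member call between treatments. The labels do not say what a number shares. Same-numbered SC and SH2 libraries deviated together, with r of 0.36 to 0.40 in RNA and 0.24 to 0.29 in footprints, and there the block changed no member call and gave 8353 RNA and 5018 footprint calls over all genes in place of 7805 and 4576. Over all treatments r was -0.15 to 0.49 in RNA and -0.12 to 0.31 in footprints, and the own number was best in 24 of 36 comparisons.

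Counts over all genes moved more. In translational efficiency they were 489 in SH2 (110 when SH2 replicate 3 was left out, 140 for SC replicate 3, 195 for SH2 replicate 1, 191 with the lysate as a block, 184 with only the groups compared, 314 with thinned footprints, 910 by DESeq2), 86 in SH3 (10 without SC replicate 3, 11 to 31 without any 1 SH3 replicate, 244 without SC replicate 1, 23, 46 and 349 under the lysate block, only the groups compared and DESeq2) and 2 between the hairpins (0 to 1 when an SH2 or SH3 replicate was left out, 0 under the lysate block and thinning, 4 under the number block, 35, 36 and 219 under no filter, only the groups compared and DESeq2). In footprints between the hairpins they were 2459, and 1541 without SH3 replicate 2. Of the 219 translational efficiency calls of DESeq2 between the hairpins, 58.9% were higher in SH2, and 0% of the 2 calls of edgeR. The causes were not tested. Depth limits the precision of EEF2K footprints (31 to 125 counts).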

Other observations

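The authors' deposited table also holds a measure named RD. All 3 of its columns were identical for SH2 and SH3, so EEF1A1 is listed at 0.5176 and TPT1 at 1.048 for both hairpins. Over 14348 genes, Pearson's r of that measure with the table's own footprint change less its RNA change was 0.513 for SH2 and 0.982 for SH3. This correlation is across genes, which are not independent replicates. The fits reported here gave EEF1A1 a change in translational efficiency of 1.03 in SH2 and 0.52 in SH3.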
